A study of Mus musculus with 31 samples.

Results

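The TNF and TNF receptor superfamily was followed in a mouse mesothelioma grown at 3 sites, taking every gene symbol that starts with Tnfsf or Tnfrsf followed by a digit. The rule found 32 of the 54456 genes listed for whole tumours, of which 12 were ligand symbols (Tnfsf) and 20 receptor symbols (Tnfrsf), and 16 of the 12461 genes listed for sorted tumour cells. One of the 12 ligand symbols, Tnfsf13os, is a non-coding antisense RNA. AB1 cells, a mesothelioma line of BALB/c origin carrying the fluorescent protein mCherry, were placed in the pleural cavity, in the peritoneal cavity or under the skin of female BALB/c mice aged 12 weeks, and tumours were taken on day 10 from mice that had received no therapy. Whole tumours came from 6 pleural, 5 peritoneal and 5 subcutaneous mice, and sorted cells, negative for the leukocyte surface protein CD45 and positive for mCherry, from 5 mice per site, giving 31 libraries. All animals were of 1 strain and 1 sex and all tumours came from the same injected line, so each site stands for this line in this host. The question the design poses is how the same tumour differs with the place where it grows.

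Superfamily ligands are mostly trimeric proteins displayed on the cell surface or shed from it, and their receptors cluster when they bind. Receptors without a death domain recruit TRAF adaptors and activate NF-kB, whereas receptors with one, such as TNF receptor 1 and the TRAIL receptor, can also assemble a complex that activates caspase 8. In tumours the family is best known for costimulation of T cells (4-1BB, OX40, GITR, CD27), for support of B cells and plasma cells (BAFF, APRIL), for killing through TRAIL, and for the TWEAK receptor Fn14, which many injured and malignant tissues express.

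Promoters of 4 members that differed between sites are shown first, so that the letters upstream of these genes can be read beside their levels: Fn14 (Tnfrsf12a) and RANK ligand (Tnfsf11), which differed in sorted cells and in whole tumours, OX40 (Tnfrsf4), which had the largest fold change of any member in sorted cells, and LIGHT (Tnfsf14), which differed in whole tumours. Each is the 250 bases before the annotated start site, written 5′ to 3′ on the gene's strand, from RefSeq on build GRCm38.p6, which is an older build than the one the expression values were made with. The Tnfrsf12a window is chr17:23677450-23677699 on the minus strand, the Tnfsf11 window is chr14:78308044-78308293 on the minus strand, the Tnfrsf4 window is chr4:156013445-156013694 on the plus strand and the Tnfsf14 window is chr17:57194182-57194431 on the minus strand. Capitals mark a match to the AP-1 letters TGANTCA on either strand.
Tnfrsf12a: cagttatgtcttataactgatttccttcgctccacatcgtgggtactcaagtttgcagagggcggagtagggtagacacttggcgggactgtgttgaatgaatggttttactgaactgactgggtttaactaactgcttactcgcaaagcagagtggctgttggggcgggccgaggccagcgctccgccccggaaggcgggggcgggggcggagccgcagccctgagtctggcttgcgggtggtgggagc
Tnfsf11: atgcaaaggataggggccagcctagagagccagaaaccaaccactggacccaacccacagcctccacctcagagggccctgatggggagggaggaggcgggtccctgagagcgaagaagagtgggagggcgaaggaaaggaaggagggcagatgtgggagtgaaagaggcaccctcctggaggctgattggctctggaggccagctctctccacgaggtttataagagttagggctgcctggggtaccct
Tnfrsf4: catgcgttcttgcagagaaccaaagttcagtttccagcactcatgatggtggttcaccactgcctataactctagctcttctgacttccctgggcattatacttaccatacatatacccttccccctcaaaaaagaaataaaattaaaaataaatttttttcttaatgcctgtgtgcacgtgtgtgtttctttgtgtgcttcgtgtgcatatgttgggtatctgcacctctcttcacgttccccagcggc
Tnfsf14: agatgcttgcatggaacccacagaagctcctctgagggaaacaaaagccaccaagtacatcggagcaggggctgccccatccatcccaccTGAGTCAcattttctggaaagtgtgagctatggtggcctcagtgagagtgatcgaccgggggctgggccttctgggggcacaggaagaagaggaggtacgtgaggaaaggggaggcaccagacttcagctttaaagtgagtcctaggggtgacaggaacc

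The 4 windows differ in base composition, with 58.8% G or C in Tnfrsf12a, 60.4% in Tnfsf11, 42.8% in Tnfrsf4 and 56.0% in Tnfsf14. Of the 32 members, 24 had a promoter in the RefSeq table, 28 promoters in all. The AP-1 letters occurred on at least 1 strand in 5 of these 28 (17.9%), those of Tnfrsf8, Tnfrsf9, Tnfsf13, Tnfsf13b and Tnfsf14, against 2217 of all 32851 promoters of the same length (6.75%). The NF-kB consensus was found in 2 of the 28 (7.14%), those of Tnfrsf8 and Tnfrsf9, against 1281 of all 32851 (3.90%). In Tnfsf14 the AP-1 match lies at bases 91 to 97 of the window, and the printed windows of Tnfrsf12a, Tnfsf11 and Tnfrsf4 hold neither set of letters. These matches describe sequence alone, and binding was not measured.

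Levels are in TPM, a share of each library corrected for transcript length, so the read depth behind a value is unknown. Differences between sites were fitted with limma on log2(TPM + 1) for all 15054 whole-tumour and 12357 sorted-cell genes that reached 1 TPM in at least 5 libraries. A gene was called at an adjusted p below 0.05. A fold change on this scale understates the change of a gene near or below 1 TPM. Of the members, 24 of 32 passed the filter in whole tumours and all 16 in sorted cells. Nearly all of the 12461 genes listed for sorted cells passed, so passing there says little about the members. A gene not listed for sorted cells has no value there, which is not a measured absence. The 2 tables were normalised separately and were never tested against each other. By their names, 14 mice gave both a whole tumour and sorted cells, so a pattern seen in both tables is not a repeat in other animals. Within a table, the 3 comparisons share libraries. Libraries that stood apart were the subcutaneous sorted libraries of replicates 1 and 2, with summed TPM of the 11 listed macrophage markers of 906 and 613 against 30.4 to 144 in the other 13 sorted libraries, and the pleural whole tumours of replicates 3 and 5, with summed skeletal muscle markers of 518 and 851 TPM against 11.2 to 14.8 in the other 4 pleural tumours (77.8 to 1417 in subcutaneous ones). Mesothelin (Msln), a mesothelioma marker, was present in every sorted library at 150 to 316 TPM, while Cd3e, Foxp3, Jchain and Ncr1 were not listed in the sorted table, which held 1 of 14 T cell markers (Lck). Of the 15 mesothelial and mesothelioma markers, 5 were listed there, and their sums were 196 to 363 TPM in pleural, 267 to 356 TPM in peritoneal and 220 to 285 TPM in subcutaneous libraries. Although the sort removed CD45+ cells, all 10 pan-leukocyte markers were listed, at sums of 110.1 to 156 TPM, 126 to 154 TPM and 122 to 481 TPM at the same sites. Of these 10, 1 fell in pleural and 2 fell in peritoneal against subcutaneous sorted cells. In whole tumours a lower level can come from fewer cells of a type or from less RNA per cell, and these cannot be told apart.

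Fn14 was the most abundant member at every site. It supplied 39.2% to 50.7% of the summed TPM of the 32 members in whole tumours, where that sum was 639 to 802 TPM, and 52.5% to 73.1% of the sum of the 16 members in sorted cells, where it was 636 to 1066 TPM. Among all genes of a whole-tumour library it ranked 384 to 582, and among those of a sorted library 218 to 418. Next came TNF receptor 1 (Tnfrsf1a), the main receptor for TNF, at 77.1 to 110.2 TPM in whole tumours and 38.9 to 78.8 TPM in sorted cells. A middle group between about 20 and 50 TPM in whole-tumour means held TNF receptor 2 (Tnfrsf1b), the decoy receptors Tnfrsf22 and Tnfrsf23, Tnfsf12, Tnfrsf9, Tnfrsf11a, Tnfrsf14 and, in the sites where it was highest, Tnfrsf10b. The lymphocyte receptors Tnfrsf8, Tnfrsf13c, Tnfrsf17 and Tnfrsf25 and the ligands Tnfsf4, Tnfsf15 and Tnfsf18 lay below the filter.

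**Figure D1:**
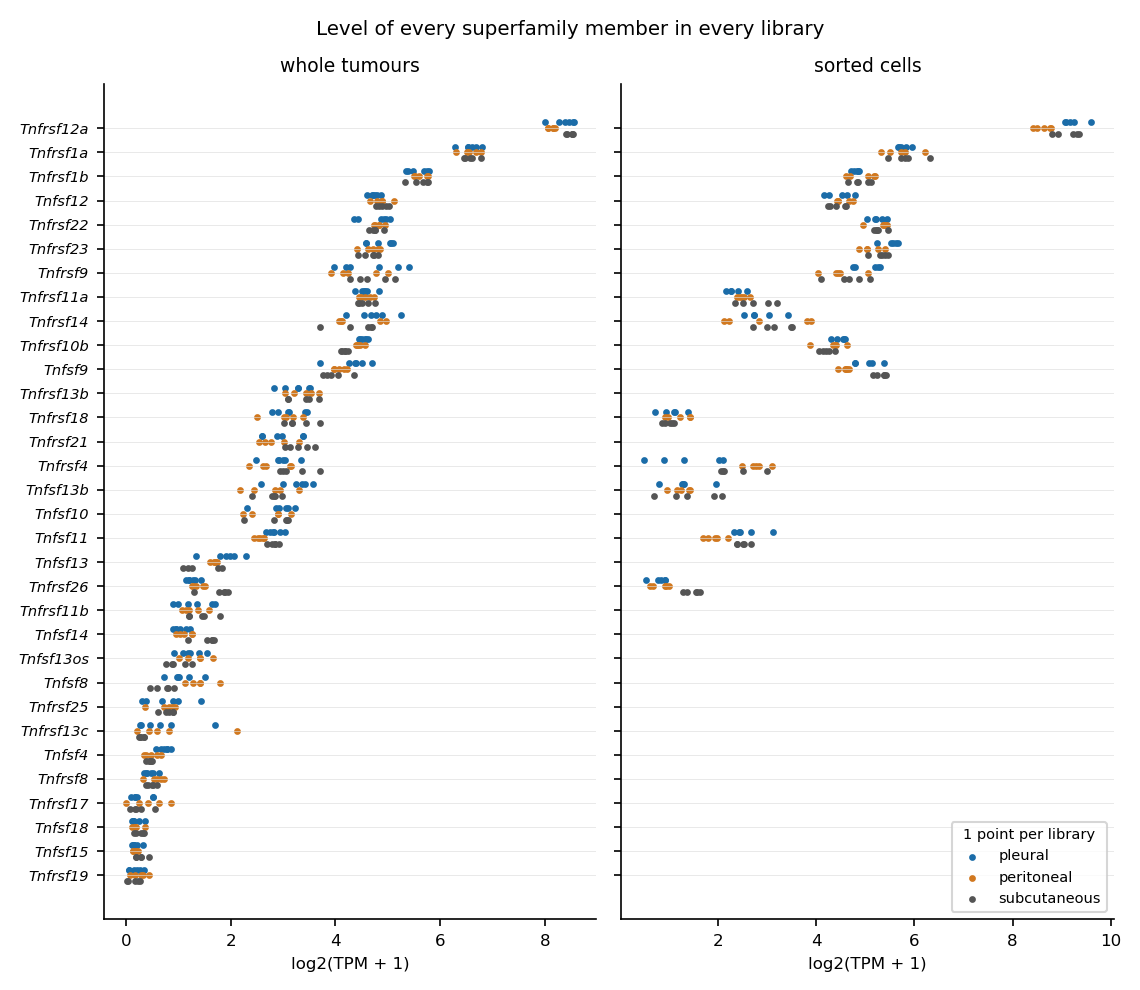
Level of each superfamily member as log2(TPM + 1) in every library, whole tumours on the left and sorted tumour cells on the right, with 1 point per library, coloured by site and set in rows by gene with pleural points uppermost and subcutaneous points lowest. Tnfrsf12a lies farthest to the right in both tables, followed by Tnfrsf1a, and genes with no points on the right were not listed for sorted cells.

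Of the members tested, 9 changed with site in at least 1 comparison, 6 in whole tumours and 6 in sorted cells. No matching share of all genes called in at least 1 comparison is given here, so these pooled counts cannot be set against a background. Single comparisons called, in either direction, 0.0531% to 12.8% of all whole-tumour genes tested and 1.64% to 11.1% of all sorted-cell genes tested. In whole tumours, pleural against subcutaneous, 1 of 24 rose (Tnfrsf10b) and 2 fell (Tnfsf14, Tnfrsf26), where 9.4% of all genes tested rose and 3.4% fell. Peritoneal against subcutaneous, 2 of 24 rose (Tnfrsf10b, Tnfsf8) and 4 fell (Tnfrsf12a, Tnfsf11, Tnfsf14, Tnfrsf26), where 8.52% of all genes rose and 3.64% fell. Pleural against peritoneal, 0 of 24 were called by limma and 4 had an unadjusted p below 0.05, where 0.0266% of all genes rose and 0.0266% fell. Scaling moved the split over all genes: of all calls, 73.4% were higher in pleural against subcutaneous tumours, against 45.9% under median-of-ratios scaling and 48.4% under quantile normalization, and 70.1% in peritoneal against subcutaneous tumours, against 45.8% and 48.2%. The whole-tumour median log2 fold changes of the members were 0.004, -0.02 and 0.09 in these 3 comparisons, beside 0.07, 0.07 and 0.003 over all genes tested. In each, the median of the members lay within 0.1 of that of all genes. Values of the sites compared did not overlap for 7.76%, 12.5% and 1.14% of all genes tested, in the same order.

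In sorted cells, pleural against subcutaneous, 0 of 16 rose and 1 fell (Tnfrsf26), where 0.397% of all genes tested rose and 1.25% fell. Peritoneal against subcutaneous, 0 of 16 rose and 4 fell (Tnfsf9, Tnfsf11, Tnfrsf12a, Tnfrsf26), where 4.75% of all genes rose and 6.33% fell. Pleural against peritoneal, 4 of 16 rose (Tnfsf9, Tnfsf11, Tnfrsf12a, Tnfrsf23) and 1 fell (Tnfrsf4), where 4.45% of all genes rose and 5.51% fell. Of all calls, 24.1% were higher in the first comparison against 39.7% under quantile normalization, 42.9% in the second against 61.3% under quantile normalization, and 44.7% in the last against 55.8% under median-of-ratios scaling. The sorted-cell median log2 fold changes of the members were -0.05, -0.18 and 0.01 in these 3 comparisons, beside -0.02, -0.03 and 0.004 over all genes. Values of the sites compared did not overlap for 3.11%, 9.48% and 9.57% of all genes tested, in the same order. Tnfsf9, Tnfsf11 and Tnfrsf12a appear in each comparison with peritoneal cells, and these comparisons share the same 5 peritoneal libraries, which were the lowest of the 3 sites for each of these genes.

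**Figure D2:**
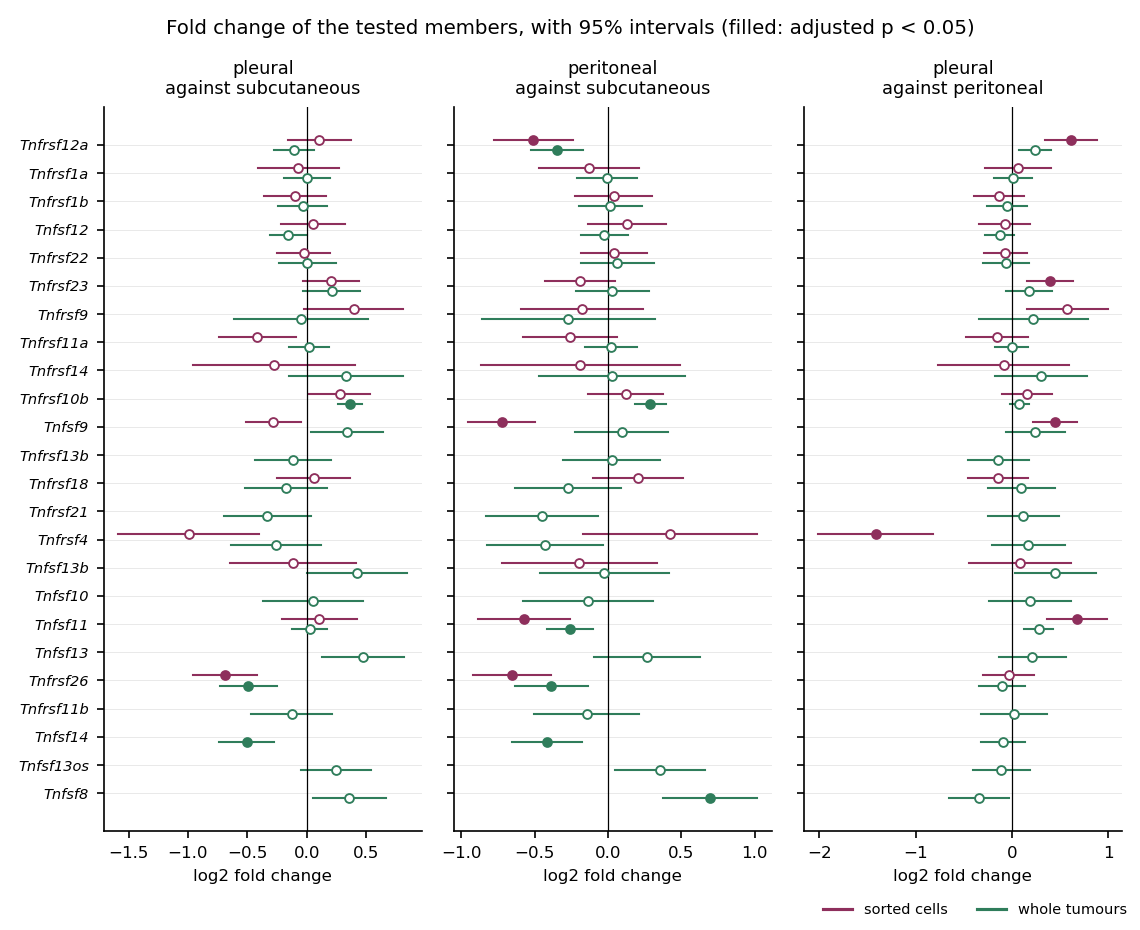
Log2 fold change of each tested member with its 95% interval in the 3 comparisons between sites, for whole tumours and for sorted cells; filled points have an adjusted p below 0.05. Most intervals cross 0, and the widest departure is Tnfrsf4 in sorted cells, pleural against peritoneal, at -1.42.

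Among the ligands, 4-1BB ligand (Tnfsf9), which costimulates T cells through Tnfrsf9 (4-1BB, CD137), was the lowest in peritoneal sorted cells. By replicate 1 to 5, sorted cells held 34.2, 32.5, 26.5, 26.7 and 40.6 TPM of Tnfsf9 at the pleural site, 20.8, 22.9, 23.4, 24.5 and 23.8 TPM at the peritoneal site and 40.6, 36.7, 34.8, 40.3 and 41.7 TPM at the subcutaneous site. Every peritoneal library lay below every library of the other sites, and the pleural range reached into the subcutaneous one. Tnfsf9 fell in peritoneal against subcutaneous cells by 0.73 on the log2 scale (SE 0.11, adjusted p = 0.000688) and rose in pleural against peritoneal cells by 0.44 (SE 0.11, adjusted p = 0.0209). The second of these calls was lost when the fit held only the pleural and peritoneal libraries (adjusted p = 0.0551). In whole tumours Tnfsf9 averaged 19.5 ± 4.33 TPM in pleural (SD, n = 6), 15.9 ± 1.32 TPM in peritoneal (SD, n = 5) and 15.01 ± 2.69 TPM in subcutaneous tumours (SD, n = 5), and no comparison passed the test. Without pleural replicate 3, the lowest whole tumour of the gene at 12.1 TPM, pleural against subcutaneous passed (log2 fold change 0.46, adjusted p = 0.0129). Of the transcript stretches of Tnfsf9, 12.9% are shared with another annotated gene, so its reads may in part be ambiguous.

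Its receptor Tnfrsf9 was measured in sorted cells at 32.8 ± 6.13 TPM in pleural, 21.9 ± 6.14 TPM in peritoneal and 24.9 ± 6.28 TPM in subcutaneous libraries (SD, n = 5 each). The pleural against peritoneal difference of 0.58 did not pass (adjusted p = 0.0713), and it passed without peritoneal replicate 3, whose 32.1 TPM was the highest of that site (adjusted p = 0.0262). In whole tumours Tnfrsf9 averaged 25.8 ± 10.8 TPM in pleural, 21.3 ± 7.16 TPM in peritoneal and 25.5 ± 6.46 TPM in subcutaneous tumours. The spread within each site was larger than the differences between the site means.

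RANK ligand (Tnfsf11), known for driving the formation of osteoclasts and of lymph nodes through RANK (Tnfrsf11a), was lowest in the peritoneum in both kinds of library. Sorted cells held 4.37, 4.03, 7.69, 5.32 and 4.45 TPM at the pleural site, 3.61, 2.24, 2.81, 2.95 and 2.44 TPM at the peritoneal site and 4.71, 4.21, 4.73, 4.20 and 5.33 TPM at the subcutaneous site. Peritoneal libraries did not overlap with those of either other site. Tnfsf11 rose in pleural against peritoneal cells by 0.68 (SE 0.15, adjusted p = 0.0137) and fell in peritoneal against subcutaneous cells by 0.57 (SE 0.15, adjusted p = 0.0225). The second call was lost without peritoneal replicate 2 (adjusted p = 0.0648), without subcutaneous replicate 1 (0.0514) or 5 (0.0616), without both subcutaneous libraries high in macrophage markers (0.0606) and under quantile normalization (0.0541).

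Whole tumours held 5.41, 6.05 and 7.16 TPM of Tnfsf11 as the lowest, median and highest pleural value, 5.21, 4.48, 5.16, 4.88 and 4.75 TPM in peritoneal replicates 1, 2, 3, 4 and 7, and 6.58, 5.87, 6.15, 5.48 and 6.18 TPM in subcutaneous replicates 1 to 5. Here too the peritoneal values lay below all others. Tnfsf11 fell in peritoneal against subcutaneous tumours by 0.26 (SE 0.07, adjusted p = 0.0355), a call lost in 7 of the 10 fits that left out 1 of these libraries (peritoneal 2, 3 or 7, subcutaneous 1, 2, 3 or 5), with adjusted p from 0.05 to 0.0867 in those 7, and with no filter on low values (0.0574). The pleural against peritoneal difference of 0.28 did not pass over all genes (adjusted p = 0.181). RANK itself (Tnfrsf11a) averaged 22.96, 22.94 and 22.61 TPM in pleural, peritoneal and subcutaneous tumours and 4.09, 4.64 and 5.91 TPM in sorted cells of the same sites, with no call. The soluble decoy osteoprotegerin (Tnfrsf11b), listed for whole tumours only, averaged 1.51, 1.45 and 1.71 TPM at those sites, again with no call.

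CD30 ligand (Tnfsf8), a ligand of activated T cells and other leukocytes, was higher in peritoneal than in subcutaneous whole tumours. Its values were 0.662, 0.995 and 1.85 TPM as the lowest, median and highest in pleural tumours, 1.68, 1.19, 1.42, 1.68 and 2.46 TPM in the peritoneal replicates and 0.727, 0.377, 0.737, 0.508 and 0.892 TPM in the subcutaneous ones. Peritoneal and subcutaneous tumours did not overlap, and pleural tumours lay across both. The gene passed the filter through all 5 peritoneal and 3 pleural tumours and no subcutaneous one, so its peritoneal call carries the limit that a gene kept in this way had to differ. Tnfsf8 rose in peritoneal against subcutaneous tumours by 0.70 (SE 0.15, adjusted p = 0.00985), the largest fold change of a member in whole tumours, and pleural against subcutaneous did not pass (0.36, adjusted p = 0.11). In the same comparison 2 of 10 tested B cell markers and 6 of 11 plasma cell markers rose, 1 plasma cell marker fell and 0 of 14 T cell markers were called by limma (1 at an unadjusted p below 0.05). The B cell marker Bank1 reached 1 TPM in no subcutaneous tumour, so its call carries the same limit. B cell marker sums were 22.1 to 184 TPM in peritoneal and 14.6 to 21.04 TPM in subcutaneous tumours, and their part in the Tnfsf8 difference was not tested. Its receptor CD30 (Tnfrsf8) stayed between 0.256 and 0.643 TPM in all whole tumours.

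LIGHT (Tnfsf14), which binds HVEM (Tnfrsf14) and the lymphotoxin beta receptor (Ltbr), was lower in both cavities than under the skin. Whole tumours held 0.856, 0.995 and 1.35 TPM as the lowest, median and highest pleural value, 1.05, 0.941, 1.38, 1.15 and 1.39 TPM in the peritoneal replicates and 1.26, 2.12, 1.92, 2.20 and 2.14 TPM in the subcutaneous ones. Subcutaneous replicate 1 fell within the range of both cavities, while the other 4 lay above every cavity tumour. Tnfsf14 fell by 0.50 in pleural against subcutaneous (SE 0.11, adjusted p = 0.0100) and by 0.42 in peritoneal against subcutaneous tumours (SE 0.11, adjusted p = 0.0276). The peritoneal call was lost without any 1 of 6 libraries (peritoneal 1 or 2, subcutaneous 2, 3, 4 or 5), with adjusted p from 0.0515 to 0.0709, and with no filter on low values (0.0657). HVEM averaged 26.1, 21.3 and 20.7 TPM and Ltbr 64.1, 67.4 and 61.6 TPM in pleural, peritoneal and subcutaneous whole tumours, and neither was called in either table.

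Leukocyte markers of the same tumours moved in both directions. Of 8 natural killer cell markers tested, 3 fell in pleural and 5 in peritoneal against subcutaneous tumours, with summed levels of 36.5 to 92.1 TPM in pleural, 31.9 to 63.6 TPM in peritoneal and 76.2 to 129 TPM in subcutaneous tumours. Macrophage markers fell for 4 of 12 and 7 of 12, with sums of 1754 to 3453, 1374 to 2315 and 2458 to 3121 TPM. The natural killer receptor gene Ncr1 averaged 4.99, 3.73 and 11.9 TPM and the macrophage gene Adgre1 43.1, 34.7 and 70.2 TPM at these sites. The natural killer marker Klrb1c reached 1 TPM in no peritoneal tumour, so its peritoneal call carries the limit given for Tnfsf8. Other lists differed in pleural and peritoneal against subcutaneous tumours. Plasma cell markers rose for 5 of 11 and 6 of 11, with 1 falling in each. T cell markers were called for 0 of 14 in each, and B cell markers rose for 0 of 10 and 2 of 10. Pan-leukocyte markers fell for 0 of 10 and 2 of 10. Dendritic cell markers fell for 3 of 9 in each, mast cell markers for 4 of 7 and 2 of 7, and regulatory T cell markers for 0 of 7 and 2 of 7. Neutrophil markers fell for 2 of 8 in each and rose for 0 and 1. Of all genes tested, 3.4% and 3.64% fell and 9.4% and 8.52% rose, in the same order. The part of these cell types in the Tnfsf14 result was not tested.

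The remaining ligands did not pass a test in any comparison. TRAIL (Tnfsf10), the ligand of the mouse death receptor Tnfrsf10b, averaged 6.69 ± 1.52 TPM in pleural, 5.79 ± 1.73 TPM in peritoneal and 6.44 ± 1.62 TPM in subcutaneous whole tumours (SD, n = 6, 5 and 5). TWEAK (Tnfsf12), the ligand of Fn14, averaged 25.8 ± 1.66, 28.4 ± 3.38 and 28.8 ± 2.11 TPM in whole tumours and 21.4 ± 3.97, 22.4 ± 2.53 and 20.5 ± 2.52 TPM in sorted cells of the same sites. No TWEAK comparison passed in either table, although pleural against subcutaneous tumours passed under both alternative scalings (-0.22 and -0.23, adjusted p = 0.0374 and 0.0376).

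BAFF (Tnfsf13b) and APRIL (Tnfsf13), which act on B cells and plasma cells, averaged 8.38 ± 2.11 and 2.81 ± 0.791 TPM in pleural, 5.94 ± 2.09 and 2.22 ± 0.108 TPM in peritoneal, and 5.88 ± 0.958 and 1.75 ± 0.674 TPM in subcutaneous whole tumours. Pleural against subcutaneous missed the threshold for both (adjusted p = 0.158 for BAFF and 0.0653 for APRIL), and APRIL passed without pleural replicate 1 (0.59, adjusted p = 0.0204) or subcutaneous replicate 4 (0.56, adjusted p = 0.0495). The antisense RNA Tnfsf13os averaged 1.36, 1.55 and 0.991 TPM. Of the transcript stretches of Tnfsf12 and Tnfsf13, 47.4% and 58.4% are shared with other genes, mainly the read-through gene Tnfsfm13, so reads can be split among them, and no source used here says whether counting used strand. In sorted cells BAFF averaged 1.59, 1.38 and 1.88 TPM. Of their receptors, TACI (Tnfrsf13b) averaged 8.60, 9.57 and 9.39 TPM, the BAFF receptor (Tnfrsf13c) ranged from 0.155 to 3.35 TPM and BCMA (Tnfrsf17) from 0 to 0.820 TPM in whole tumours. The highest Tnfrsf13c values were 3.35 TPM in peritoneal replicate 7 and 2.24 TPM in pleural replicate 2, the tumours with the largest B cell marker sums, 184 and 109 TPM.

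Below the filter in whole tumours were OX40 ligand (Tnfsf4, 0.272 to 0.820 TPM), the DR3 ligand TL1A (Tnfsf15, 0.0769 to 0.352 TPM), GITR ligand (Tnfsf18, 0.0773 to 0.282 TPM), DR3 itself (Tnfrsf25, 0.241 to 1.71 TPM) and Tnfrsf19 (0.00907 to 0.350 TPM). With Tnfrsf8, Tnfrsf13c and Tnfrsf17 these make up the 8 members that were not tested.

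Among the receptors, Fn14 (Tnfrsf12a), the small receptor that relays TWEAK to TRAF adaptors, was lowest in the peritoneum. Sorted cells held 536, 578, 606, 779 and 542 TPM at the pleural site, 362, 435, 397, 338 and 441 TPM at the peritoneal site and 447, 485, 601, 657 and 639 TPM at the subcutaneous site. All peritoneal libraries lay below all libraries of both other sites, which overlapped each other. Tnfrsf12a rose in pleural against peritoneal cells by 0.62 (SE 0.13, adjusted p = 0.0104) and fell in peritoneal against subcutaneous cells by 0.51 (SE 0.13, adjusted p = 0.0183). Pleural against subcutaneous cells differed by 0.11 (adjusted p = 0.873). The second call was lost under median-of-ratios scaling (adjusted p = 0.0742) and without subcutaneous replicate 5 (0.0535), and it was kept without both macrophage-rich subcutaneous libraries (0.00462).

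In whole tumours Tnfrsf12a ran at 255, 344 and 375 TPM as the lowest, median and highest pleural value, at 286, 267, 285, 293 and 267 TPM in the peritoneal replicates and at 345, 366, 371, 364 and 337 TPM in the subcutaneous ones. Peritoneal and subcutaneous tumours did not overlap, and the pleural tumours spanned both. Tnfrsf12a fell in peritoneal against subcutaneous tumours by 0.35 (SE 0.08, adjusted p = 0.0158), with adjusted p from 0.000256 to 0.0518 over the alternatives run. The call was lost in 1 of them, a replicate block by the numbers in the library names. Pleural against peritoneal did not pass (0.24, adjusted p = 0.299). It passed without pleural replicate 3, the tumour at 255 TPM that also held muscle markers (0.32, adjusted p = 0.0297), and without both muscle-marked pleural tumours (0.36, adjusted p = 0.00938).

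The TRAIL death receptor (Tnfrsf10b) was higher in both cavities than under the skin in whole tumours. Its values were 20.8, 22.2 and 23.5 TPM as the lowest, median and highest of the pleural tumours, 21.1, 22.8, 20.7, 20.0 and 20.3 TPM in the peritoneal and 17.2, 16.2, 17.2, 17.96 and 16.5 TPM in the subcutaneous ones. No subcutaneous tumour reached the lowest tumour of either cavity. Tnfrsf10b rose by 0.36 in pleural (SE 0.05, adjusted p = 0.000303) and by 0.29 in peritoneal against subcutaneous tumours (SE 0.05, adjusted p = 0.0024), and both calls were kept in all alternatives run. In the same tumours, 6 of 11 tested mesothelial and mesothelioma markers rose and 1 fell in pleural, and 9 rose and 1 fell in peritoneal against subcutaneous tumours, with sums of 253 to 365 TPM in pleural, 279 to 363 TPM in peritoneal and 248 to 308 TPM in subcutaneous tumours. Of 12 skeletal muscle markers, 7 fell in pleural and 10 in peritoneal against subcutaneous tumours, with sums of 11.2 to 851, 14.3 to 17.4 and 77.8 to 1417 TPM. The mesothelial markers Krt18, Krt19, Lrrn4, Upk1b and Upk3b reached 1 TPM in no subcutaneous tumour. The muscle markers Acta1, Myh1, Myh4, Myl1, Pvalb and Tnnc2 reached it in no peritoneal one. Calls of these genes that involve those sites carry the limit given for Tnfsf8. The part of both marker lists in the Tnfrsf10b difference was not tested. In sorted cells Tnfrsf10b averaged 21.5 ± 1.80 TPM in pleural, 19.3 ± 3.63 TPM in peritoneal and 17.5 ± 1.60 TPM in subcutaneous libraries (SD, n = 5 each), and the pleural against subcutaneous difference of 0.28 did not pass (adjusted p = 0.394). Of its transcript stretches, 11.4% are shared with other genes.

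OX40 (Tnfrsf4), a costimulatory receptor best known from activated and regulatory T cells, was lower in pleural than in peritoneal sorted cells. Its values were 0.399, 3.06, 0.859, 1.47 and 3.28 TPM at the pleural site, 5.56, 4.59, 6.09, 5.81 and 7.53 TPM at the peritoneal site and 3.14, 6.95, 3.31, 3.36 and 4.65 TPM at the subcutaneous site. Pleural and peritoneal libraries did not overlap, and subcutaneous ones lay across both. Tnfrsf4 fell in pleural against peritoneal cells by 1.42 (SE 0.28, adjusted p = 0.00925), a call kept in all alternatives run. Pleural against subcutaneous cells, at -0.99, did not pass (adjusted p = 0.106) and passed without pleural replicate 5 (-1.18, adjusted p = 0.0427). The T cell genes Cd3e and Foxp3 were not listed for sorted cells and so have no values there. The level of the single listed T cell marker was 4.72 to 8.36 TPM at the pleural and 4.17 to 8.13 TPM at the peritoneal site. In whole tumours Tnfrsf4 averaged 6.84 ± 1.45, 6.03 ± 1.69 and 8.45 ± 2.28 TPM in pleural, peritoneal and subcutaneous tumours, with no call. GITR (Tnfrsf18), a related receptor of regulatory T cells, averaged 7.86, 7.32 and 9.01 TPM in whole tumours and 1.09, 1.31 and 0.991 TPM in sorted cells, with no call, and 21.9% of its transcript stretches are shared with another gene.

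**Figure D3:**
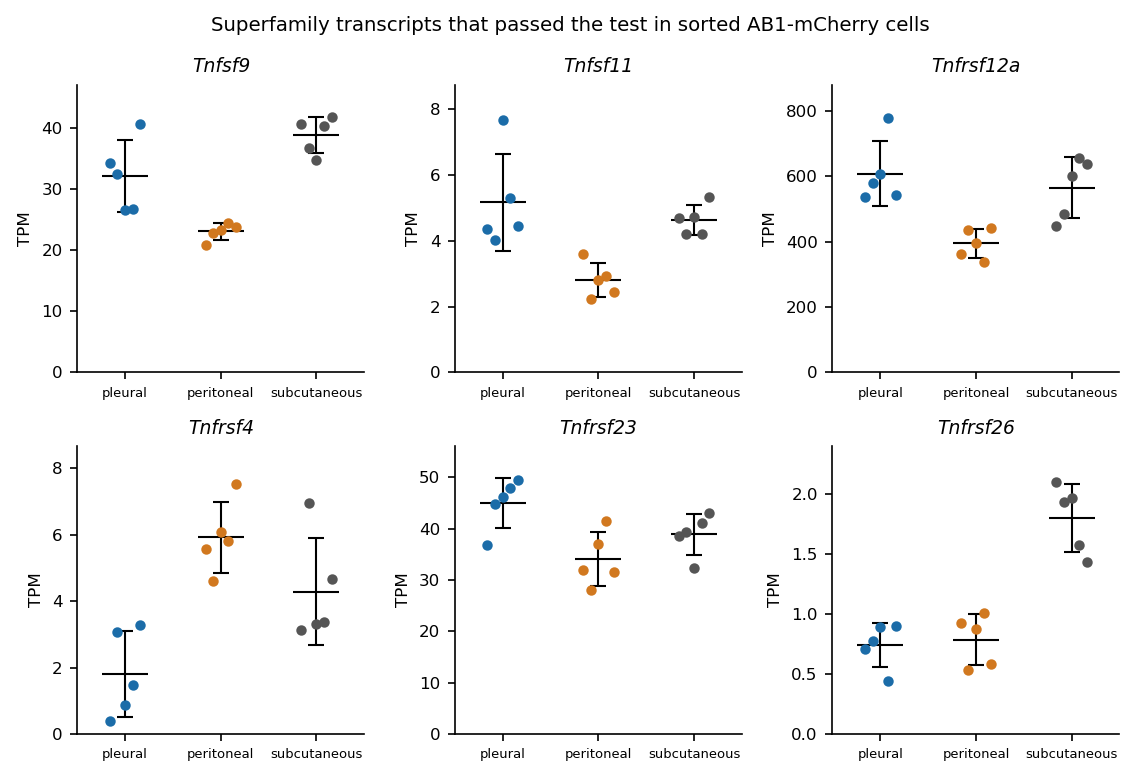
TPM of the 6 members called in sorted cells, with a point per library and the bar and whisker at the mean ± SD of 5 libraries per site, sites running from pleural through peritoneal to subcutaneous. Peritoneal points sit below both other sites for Tnfsf9, Tnfsf11 and Tnfrsf12a, pleural points sit below the peritoneal ones for Tnfrsf4, and subcutaneous points sit above the rest for Tnfrsf26.

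Of Tnfrsf22, Tnfrsf23 and Tnfrsf26, receptor genes of the mouse on chromosome 7, only Tnfrsf23 and Tnfrsf26 were called. The decoy receptor Tnfrsf23, which binds TRAIL without a death domain in the mouse, held 36.8, 44.7, 46.1, 48.0 and 49.4 TPM in pleural, 31.9, 28.1, 37.1, 41.4 and 31.6 TPM in peritoneal and 38.5, 39.3, 32.4, 41.1 and 43.0 TPM in subcutaneous sorted cells. The pleural and peritoneal ranges overlapped. Tnfrsf23 rose in pleural against peritoneal cells by 0.40 (SE 0.11, adjusted p = 0.0371), and the call was lost in 7 of the 10 fits that left out 1 of these libraries (pleural 2, 3, 4 or 5, peritoneal 1, 2 or 5), with adjusted p from 0.0557 to 0.0978 in those 7. It was also lost when only these sites were fitted (0.0714) and without both macrophage-rich subcutaneous libraries (0.0534). The second decoy receptor, Tnfrsf22, averaged 37.0 ± 4.03 TPM in pleural, 38.9 ± 5.19 TPM in peritoneal and 37.6 ± 3.13 TPM in subcutaneous sorted cells, with no call. The 2 genes share reads: 26.6% of the transcript stretches of Tnfrsf23 occur in Tnfrsf22 and 25.5% of those of Tnfrsf22 in Tnfrsf23, so both values are uncertain.

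Tnfrsf26 was highest under the skin in both kinds of library. Sorted cells held 0.711, 0.772, 0.890, 0.442 and 0.901 TPM at the pleural site, 0.922, 0.532, 0.876, 1.01 and 0.583 TPM at the peritoneal site and 2.10, 1.93, 1.97, 1.58 and 1.43 TPM at the subcutaneous site. Neither cavity overlapped with the subcutaneous libraries. Tnfrsf26 fell by 0.69 in pleural (SE 0.13, adjusted p = 0.0074) and by 0.65 in peritoneal against subcutaneous cells (SE 0.13, adjusted p = 0.00437). It passed the filter through the 5 subcutaneous libraries and 1 peritoneal library, and its sorted-cell calls carry the limit given for Tnfsf8. Without both macrophage-rich subcutaneous libraries, and with the same genes tested, the pleural call was lost (adjusted p = 0.0842) and the peritoneal call kept (0.0267).

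Whole tumours held 1.21, 1.37 and 1.70 TPM of Tnfrsf26 as the lowest, median and highest pleural value, 1.53, 1.76, 1.42, 1.39 and 1.84 TPM in the peritoneal replicates and 1.45, 2.65, 2.44, 2.86 and 2.69 TPM in the subcutaneous ones. All tumours were above 1 TPM, and subcutaneous replicate 1 lay within the range of the cavities. Tnfrsf26 fell by 0.49 in pleural (SE 0.11, adjusted p = 0.0131) and by 0.39 in peritoneal against subcutaneous tumours (SE 0.12, adjusted p = 0.0424). The peritoneal call was lost without any 1 of 8 libraries (peritoneal 1, 2, 3 or 4, subcutaneous 2, 3, 4 or 5), with adjusted p from 0.064 to 0.101, with no filter (0.0992) and when only these sites were fitted (0.0743). In the same tumours the called natural killer cell and macrophage markers given beside Tnfsf14 fell in the cavities. Sums of both lists were lower in peritoneal than in all subcutaneous tumours, while pleural sums overlapped the subcutaneous ones. Mast cell marker sums were 35.5 to 63.2 TPM in pleural, 58.4 to 93.1 TPM in peritoneal and 81.1 to 150 TPM in subcutaneous tumours. Their part was not tested.

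**Figure D4:**
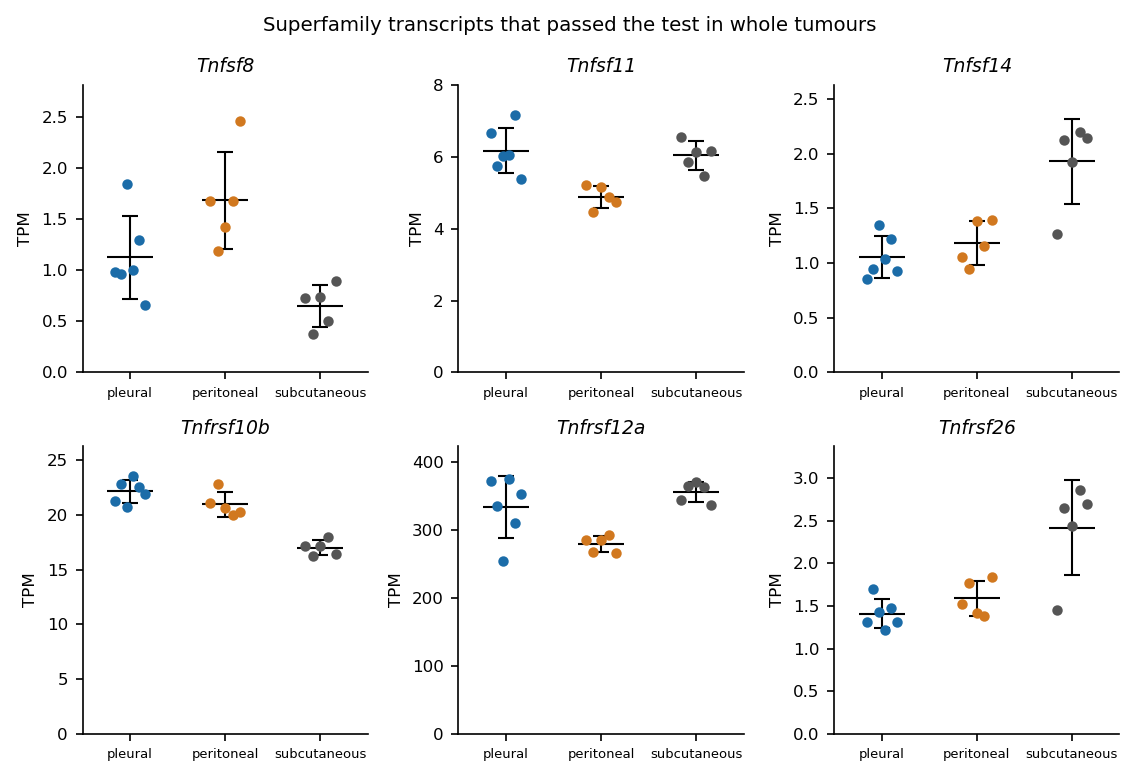
TPM of the 6 members called in whole tumours, with a point per tumour and the bar and whisker at the mean ± SD of 6 pleural, 5 peritoneal and 5 subcutaneous tumours. Tnfrsf10b is lowest under the skin, Tnfsf14 and Tnfrsf26 are highest there apart from subcutaneous replicate 1, and peritoneal points sit above the subcutaneous ones for Tnfsf8 and below them for Tnfrsf12a and Tnfsf11. Pleural points reach into the peritoneal range for Tnfsf8, and the lowest Tnfrsf12a point is pleural replicate 3.

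The classical TNF receptors did not pass a test in any comparison. Tnfrsf1a averaged 94.9 ± 11.3 TPM in pleural, 94.3 ± 11.7 TPM in peritoneal and 94.5 ± 8.88 TPM in subcutaneous whole tumours. Its log2 fold change was 0.003 in pleural against subcutaneous tumours (95% interval -0.19 to 0.20). It was -0.007 in peritoneal against subcutaneous (-0.21 to 0.20) and 0.0102 in pleural against peritoneal tumours. In sorted cells Tnfrsf1a averaged 53.8 ± 4.74, 52.5 ± 13.1 and 57.5 ± 13.2 TPM in pleural, peritoneal and subcutaneous libraries. TNF receptor 2 (Tnfrsf1b) averaged 47.1, 48.6 and 48.2 TPM in whole tumours and 27.0, 30.2 and 29.1 TPM in sorted cells. Death receptor 6 (Tnfrsf21) averaged 7.04, 6.35 and 8.98 TPM in whole tumours, and its peritoneal against subcutaneous difference of -0.45 did not pass (adjusted p = 0.105). In whole tumours the decoy receptors averaged 26.7, 27.4 and 26.2 TPM (Tnfrsf22) and 28.4, 24.8 and 24.3 TPM (Tnfrsf23), with no call. In sorted cells HVEM averaged 6.591, 7.995 and 8.148 TPM, also with no call.

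Superfamily genes that carry other symbols were followed as 2 lists of 7 ligands and 8 receptors. In whole tumours 0 of 4 tested ligands were called by limma in any comparison and 0 had an unadjusted p below 0.05, and of 6 tested receptors 1 rose in pleural and 1 in peritoneal against subcutaneous tumours, in both cases Eda2r, the X-linked ectodysplasin A2 receptor. Eda2r averaged 14.1 ± 2.33 TPM in pleural (SD, n = 6), 13.2 ± 0.886 TPM in peritoneal and 10.1 ± 0.717 TPM in subcutaneous tumours (SD, n = 5 each). The pleural rise was 0.43 (SE 0.09, adjusted p = 0.0114), lost under quantile normalization (0.0582), and the peritoneal rise was 0.35 (adjusted p = 0.0319), lost in 8 of 24 alternatives, median-of-ratios scaling (0.074) and quantile normalization (0.116) among them. For genes of this and the later lists, counts of alternatives leave out the replicate block fits, unlike those of the members. In sorted cells 1 ligand (Tnf) and 4 receptors were tested. Tnf itself held 0.518, 0.307, 0.826, 2.15 and 1.10 TPM in pleural, 0.774, 0.024, 0.309, 0.0301 and 0.219 TPM in peritoneal and 7.76, 3.73, 0.868, 1.80 and 0.688 TPM in subcutaneous libraries. Tnf fell in peritoneal against subcutaneous cells by 1.39 (SE 0.38, adjusted p = 0.0283). It passed the filter through 2 pleural and 3 subcutaneous libraries and no peritoneal one, so this call carries the same limit as that of Tnfsf8. The highest values, 7.76 and 3.73 TPM, belong to the 2 subcutaneous libraries rich in macrophage markers, and without these libraries the call was lost (adjusted p = 0.12), as it was in 5 of 16 alternatives in all. Relt, a receptor of the family, averaged 5.88 ± 0.992 TPM in pleural, 3.71 ± 0.904 TPM in peritoneal and 5.59 ± 0.795 TPM in subcutaneous sorted cells, and rose in pleural against peritoneal (0.56, adjusted p = 0.0288) and fell in peritoneal against subcutaneous cells (-0.50, adjusted p = 0.0386). These calls were lost in 6 and 12 of 23 alternatives, with adjusted p of up to 0.0754 and 0.16.

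Downstream of the receptors, 24 TRAF adaptors and death pathway genes were tested in each table. In whole tumours 1 of 24 fell in pleural against subcutaneous tumours, the adaptor Traf1 (29.1 ± 3.06 against 36.5 ± 3.38 TPM, log2 fold change -0.32, adjusted p = 0.0133), and 0 of 24 were called by limma in each of the other comparisons (3 in each at an unadjusted p below 0.05). Of all genes tested, 3.4% fell in pleural against subcutaneous tumours. In sorted cells 0 of 24 were called in pleural against subcutaneous (2 at an unadjusted p below 0.05). In peritoneal against subcutaneous cells 3 of 24 fell, where 6.33% of all genes tested fell. They were Birc3, an inhibitor of apoptosis protein, Tnfaip3 (A20), an enzyme that limits NF-kB signalling, and Traf6. These calls were lost in 2 (Birc3), 5 (Tnfaip3) and 6 (Traf6) of 23 alternatives, with adjusted p of up to 0.0653, 0.0657 and 0.133. Pleural against peritoneal cells, 3 of 24 rose (Cflar, the caspase 8 inhibitor c-FLIP, with Tnfaip3 and Traf6) and 2 fell (the death domain adaptors Fadd and Tradd). Of all genes tested there, 4.45% rose and 5.51% fell. In that comparison Tradd averaged 11.2 ± 1.31 TPM in pleural and 16.5 ± 1.39 TPM in peritoneal cells (-0.52, adjusted p = 0.0169), Fadd 4.33 ± 0.669 and 6.37 ± 0.59 TPM (-0.47, adjusted p = 0.0325), Cflar 50.0 ± 5.28 and 37.0 ± 4.83 TPM (0.43, adjusted p = 0.0265) and Traf6 5.38 ± 0.728 and 2.99 ± 1.00 TPM (0.71, adjusted p = 0.0221), each SD with n = 5. Pleural and peritoneal libraries did not overlap for these 4 genes, as for 9.57% of all genes tested. The 4 were named for calls on the same values, so this is not separate evidence. Leaving out single libraries ended the call for Cflar (up to 0.072), Fadd (0.0841), Tradd (0.0504) and Traf6 (0.0597). Of 8 genes of the non-canonical NF-kB pathway, used by RANK, Ltbr and Fn14, 1 fell in pleural against subcutaneous whole tumours (Relb, 28.8 ± 2.85 against 35.5 ± 3.36 TPM, -0.29, adjusted p = 0.0208) and 1 in peritoneal against subcutaneous sorted cells (Birc3). The pathway lists share genes, so the same call can be counted in more than 1 list. Birc3 is in this list, the adaptor list and the list of genes induced by NF-kB that follows. Tnfaip3 and Traf1 are in the adaptor and induced lists, and Relb is in the non-canonical and induced lists.

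Genes induced by NF-kB, the end point of most superfamily receptors, differed most between sorted cells of the peritoneum and the other sites. The list was chosen with earlier results of these data known, so its counts beside those of all genes are not an independent test. Its summed level was 2477 to 3839 TPM in pleural, 935 to 2295 TPM in peritoneal and 1181 to 3433 TPM in subcutaneous sorted cells. The peritoneal and subcutaneous sums overlapped. Of 21 tested, 0 rose and 7 fell in peritoneal against subcutaneous cells, with a median log2 fold change of -0.79 beside -0.03 over all genes. Of all genes tested there, 4.75% rose and 6.33% fell. The chemokine genes Ccl2 and Cxcl10, the adhesion gene Icam1 and Birc3 had the smallest adjusted p. Ccl2 averaged 1.67 TPM in peritoneal and 20.5 TPM in subcutaneous cells (-2.87, adjusted p = 0.000287), Cxcl10 33.0 and 129.6 TPM (-2.12, adjusted p = 0.0111), Icam1 0.525 and 4.15 TPM (-1.58, adjusted p = 0.0112) and Birc3 8.12 and 15.3 TPM (-0.87, adjusted p = 0.0136). Icam1 reached 1 TPM in no peritoneal library, so its call has the same filter limit as that of Tnf. The other 3 were Cxcl1, Cxcl2 and Tnfaip3, whose calls were lost in 6, 4 and 5 of 23 alternatives. The count ranged from 4 (without peritoneal 2, subcutaneous 4 or subcutaneous 5) to 12 (without subcutaneous 2) when single libraries were left out, and was 9 without both macrophage-rich subcutaneous libraries, where Icam1 (adjusted p = 0.0536) and Birc3 (0.0653) no longer passed.

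Pleural against peritoneal cells, 5 of 21 rose and 0 fell, with a median of 0.54 beside 0.004 over all genes. Of all genes tested there, 4.45% rose and 5.51% fell. Cxcl2, a neutrophil chemokine, averaged 146 TPM in pleural and 30.8 TPM in peritoneal cells (2.46, SE 0.46, adjusted p = 0.00703), Cxcl1 851 and 193 TPM (2.41, SE 0.48, adjusted p = 0.0096), Tnfaip3 125 and 29.4 TPM (2.47, SE 0.55, adjusted p = 0.0151) and the prostaglandin synthase gene Ptgs2 331 and 71.8 TPM (2.20, SE 0.51, adjusted p = 0.0163), and the fifth was the inhibitor Nfkbia, whose call was lost in 8 of 23 alternatives (adjusted p up to 0.0786). One peritoneal library, replicate 3, was the highest of its site for Tnfaip3, Cxcl1, Cxcl2, Ptgs2 and Cxcl10: Tnfaip3 held 22.4, 6.52, 81.7, 17.1 and 19.5 TPM in the peritoneal replicates, against 149, 106, 125, 161 and 84.1 TPM in the pleural ones. Without it the count was 9. Pleural against subcutaneous cells, 0 of 21 rose and 1 fell, Ccl2 (2.47 ± 1.92 against 20.5 ± 12.5 TPM, -2.58, SE 0.39, adjusted p = 0.00122). Of all genes tested there, 0.397% rose and 1.25% fell.

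Per library, Ccl2 held 1.56, 0.839, 2.13, 5.78 and 2.04 TPM in pleural, 2.57, 1.42, 2.43, 0.692 and 1.25 TPM in peritoneal and 39.7, 23.9, 9.09, 19.8 and 10.0 TPM in subcutaneous sorted cells, with no overlap of either cavity with the subcutaneous site. The 2 highest values are again those of the macrophage-rich libraries, while the other 3 subcutaneous libraries still exceed every cavity library. Of all genes tested, 1.25% fell in pleural and 6.33% in peritoneal against subcutaneous sorted cells. Fibroblast markers also moved with these comparisons in sorted cells, 4 of 9 falling in pleural and 5 of 9 in peritoneal against subcutaneous cells, with sums of 3211 to 4141 TPM in pleural, 2553 to 4401 TPM in peritoneal and 3644 to 6299 TPM in subcutaneous libraries. Endothelial markers fell for 2 of 7 and 6 of 7, with sums of 7.34 to 28.6, 5.54 to 15.8 and 27.6 to 43.2 TPM. Their part in the differences of the superfamily and of the NF-kB genes in sorted cells was not tested.

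In whole tumours the same 21 genes gave 0 higher and 3 lower in pleural against subcutaneous (Sod2, Traf1, Relb), 0 higher and 3 lower in peritoneal against subcutaneous (Sod2, Ptgs2, Ccl2) and 0 in pleural against peritoneal tumours by limma (4 at an unadjusted p below 0.05). Of all genes tested, 3.4% fell in pleural and 3.64% in peritoneal against subcutaneous tumours. Sod2, the mitochondrial superoxide dismutase, averaged 128 TPM in pleural, 132 TPM in peritoneal and 158 TPM in subcutaneous tumours (-0.29, adjusted p = 0.00986, and -0.25, adjusted p = 0.0215, for the cavities against the subcutaneous site). Ptgs2 averaged 7.19 TPM in peritoneal and 13.02 TPM in subcutaneous tumours (-0.78, adjusted p = 0.0244), and Ccl2 35.4 and 55.2 TPM (-0.69, adjusted p = 0.0445). The whole-tumour calls of Ptgs2 and Ccl2 were lost in 5 and 15 of 24 alternatives, and that of Sod2 in the peritoneum in 2, with adjusted p of up to 0.0679, 0.102 and 0.0593.

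**Figure D5:**
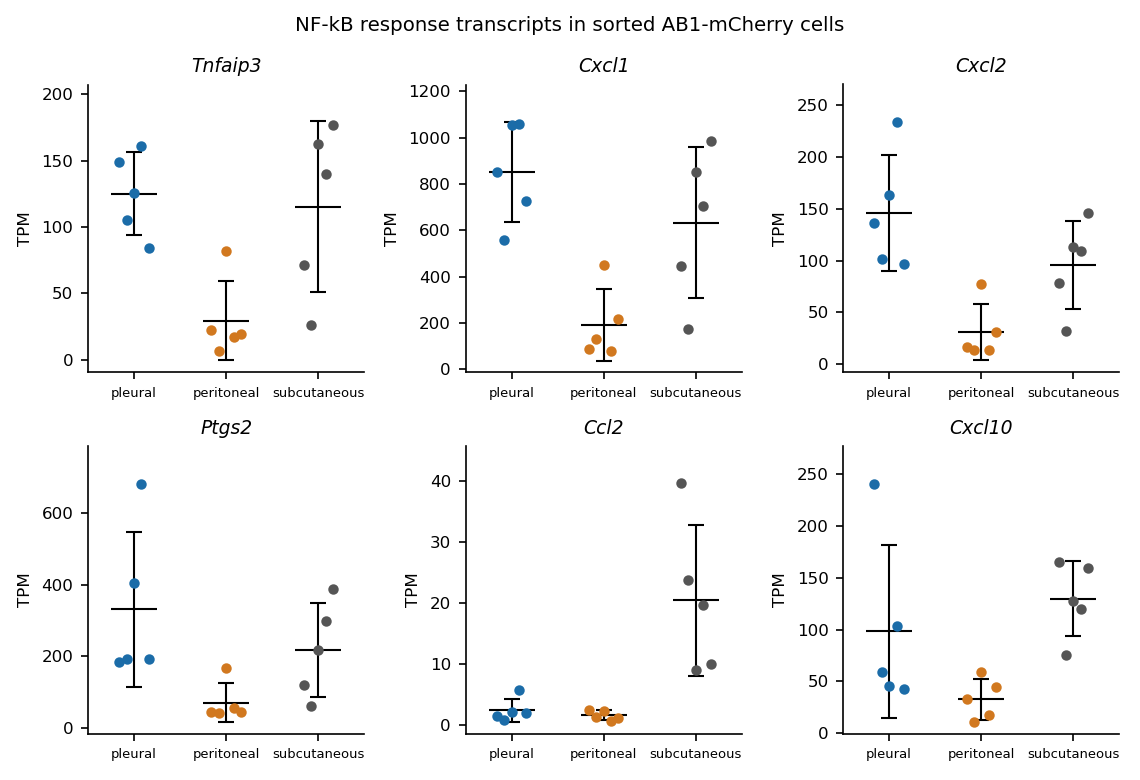
TPM of 6 genes induced by NF-kB in sorted tumour cells, with a point per library and the bar and whisker at the mean ± SD of 5 libraries per site, sites running from pleural through peritoneal to subcutaneous. For Tnfaip3, Cxcl1, Cxcl2 and Ptgs2 the peritoneal libraries are low except replicate 3, and for Ccl2 both cavities lie below all subcutaneous libraries.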

How the data were processed

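RNA from whole tumours and from sorted cells was extracted with different kits and sequenced as 50 base single-end reads, per the labels' protocols. The deposited values are TPM, which the authors made with kallisto on GRCm39 per the submitters' processing notes; no source used here gives the annotation, version or use of strand. TPM keeps no depth, so no counting error can be given. Replicates are separate mice by their names, nothing else shows how independent they are, and 14 mouse names occur in both tables. In the sorted table, 17 symbols turned into dates were left out of the fit.

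Values were tested as log2(TPM + 1) with limma 3.58.1 (R 4.3.3, empirical Bayes with a mean-variance trend), 3 sites in 1 fit per table, for genes at 1 TPM or more in at least 5 libraries, with Benjamini-Hochberg adjustment over all genes tested, a method checked on simulated data. Members called in any comparison are given per library, other tested members by means, untested ones by ranges, and called list genes up to 4 per list; 1 marker gene is not reported by itself here. Members and lists were chosen with earlier results of these data known. Promoters are RefSeq's, and shared transcript stretches are runs of 31 bases found in another gene's GENCODE transcripts. Alternatives were another pseudocount (0.1), other filters (none, 5 TPM), 2 other scalings, 2-site fits, a replicate block and left-out libraries. Counts of alternatives given for list genes leave out the replicate block.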

Additional observations from a re-analysis of the deposited data

Results flagged for a closer look

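Of 120 groups of 5 or 6 libraries checked for a library far from the others of its site, 3 stood apart. Chance alone gives about 1 in 20, or 6 groups, so this is no more than chance gives. Tnfrsf12a was at 779 TPM in pleural sorted replicate 4, above 536 to 606 TPM in the other 4 pleural libraries. Tnfrsf22 was at 29.8 TPM in peritoneal sorted replicate 2, below 40.3 to 42.6 TPM in the other 4 peritoneal libraries. Tnfrsf22 was also at 43.1 TPM in subcutaneous sorted replicate 2, above 35.3 to 37.1 TPM in the other 4 subcutaneous libraries. The Tnfrsf22 values carry the uncertainty of reads shared with Tnfrsf23.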

How the results depend on the processing

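Of the 9 members called in any comparison, no called fold change turned its direction under an alternative run, while 5 that were not called did. In whole tumours, pleural against subcutaneous, the log2 fold change of Tnfrsf12a became 0.0102 without both muscle-marked pleural tumours, and that of Tnfsf11 became -0.0381 under median-of-ratios scaling, -0.0411 under quantile normalization, -0.0159 without those tumours and -0.0134 to 0.0565 over single left-out libraries. In sorted cells, pleural against subcutaneous, that of Tnfrsf12a became -0.0690 without both macrophage-rich subcutaneous libraries and that of Tnfsf11 ran from -0.0256 to 0.172 over single left-out libraries. That of Tnfrsf26 in pleural against peritoneal sorted cells ran from -0.0851 to 0.0343. In whole tumours, the 3 members called in pleural against subcutaneous became 1 with a filter of 5 TPM and 5 without both muscle-marked pleural tumours when the same genes were tested, a setting chosen after seeing the data, and leaving out single libraries gave 3 to 4. The 6 in peritoneal against subcutaneous became 3 with no filter, 3 with a filter of 5 TPM and 3 with the replicate block, and 3 to 6 when single libraries were left out (3 without peritoneal 2 or subcutaneous 2, 3 or 5). The 0 in pleural against peritoneal became 1, Tnfrsf12a, without pleural replicate 3 or without both muscle-marked tumours, and 0 to 1 over single left-out libraries. In sorted cells, the 1 in pleural against subcutaneous became 0 with a filter of 5 TPM and 0 without both macrophage-rich subcutaneous libraries, and 1 to 2 over single left-out libraries (2 without pleural 5). The 4 in peritoneal against subcutaneous became 2 with a filter of 5 TPM, 2 without those libraries (3 with the same genes tested) and 2 to 4 over single left-out libraries (2 without subcutaneous 5). The 5 in pleural against peritoneal became 3 when the fit held only these sites, and 4 to 6 over single left-out libraries. The filter of 5 TPM left fewer members tested. With no filter, Tnfsf11 (limma adjusted p = 0.0574), Tnfsf14 (0.0657) and Tnfrsf26 (0.0992) were still tested in peritoneal against subcutaneous tumours and did not pass. Causes of these changes were not tested. By name, same-numbered libraries of different sites come from different mice. The correlation of their deviations ran from -0.377 to 0.349. Libraries with different numbers were not compared, so this range cannot show whether the numbers pair libraries. The replicate block is given as an alternative. With it, the peritoneal against subcutaneous whole-tumour calls of Tnfsf11 (adjusted p = 0.114), Tnfsf14 (0.0746) and Tnfrsf26 (0.106) were lost. For 3 of the 5 peritoneal whole tumours the library name carries another number than the mouse name. With a replicate block by library numbers, chosen after seeing the data, same-numbered correlations in whole tumours ran from -0.377 to 0.256, the 6 peritoneal against subcutaneous calls became 1 (Tnfrsf10b), with Tnfrsf12a at 0.0518 and Tnfsf8 at 0.0589, and the 3 in pleural against subcutaneous became 4 (Tnfsf13 gained).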

Other observations

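OX40 ligand (Tnfsf4), a member below the filter that was singled out after its values were seen, ranged from 0.484 to 0.820 TPM in pleural, 0.272 to 0.593 TPM in peritoneal and 0.309 to 0.415 TPM in subcutaneous whole tumours. All 6 pleural tumours lay above all 5 subcutaneous ones. Values of these sites did not overlap for 7.76% of all genes that passed the filter. With no filter on low values Tnfsf4 was called in pleural against subcutaneous tumours (log2 fold change 0.28, SE 0.07, limma adjusted p = 0.038). The share of all genes called in that fit is not given here, so this call has no background beside it. Its receptor Tnfrsf4 averaged 6.84 TPM in pleural and 8.45 TPM in subcutaneous tumours, with no call.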
